A study of Mus musculus with 32 samples.

Results

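The insulin-like growth factor (IGF) system was followed through 8 genes, which are Igf1, a ligand, the receptor genes Igf1r and Insr, the receptor adaptor gene Irs1, and the IGF binding protein genes Igfbp2, Igfbp3, Igfbp4 and Igfbp5. They were measured in mouse embryonic stem (ES) cells that lose the pluripotent state. Members are all probes whose annotation names exactly 1 of these genes, which gave 24 of 45101 probe sets on the arrays of RNA interference (RNAi) and 12 of 21106 probes on the 2-colour arrays of chemical differentiation. All 8 genes were present on both platforms.

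IGF1 and IGF2 are secreted growth factors that act through the type 1 IGF receptor, a tyrosine kinase that is close kin to the insulin receptor. The activated receptors phosphorylate IRS adaptors, which pass the signal on to phosphatidylinositol 3-kinase (PI3K), AKT and mTOR and so to growth, survival and protein synthesis. Most IGF outside cells is held by IGF binding proteins, which limit or prolong its access to receptors and are themselves cut by secreted proteases. Mouse ES cells respond to insulin and IGF with survival and proliferation, and IGF2 is a main growth factor of placenta and embryo.

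All cells were of the E14TG2a mouse ES line. For RNAi they were transfected with a pSUPER-puro plasmid by cationic lipid, and selection in puromycin at 1 µg/ml began 24 h later and lasted 3 days. There were 5 arrays with the empty parental vector, 5 with the plasmid against Nanog and 4 with that against Pou5f1. Pou5f1 encodes the transcription factor Oct4, and it and Nanog hold ES cells in the pluripotent state. The control group held the parental plasmid, and a plasmid against an unrelated target was not analysed here. These are single-colour levels in log2, normalised by RMA per the labels. For differentiation, E14 cells received 0.1 µM retinoic acid (RA), 1% dimethyl sulfoxide (DMSO) or 3 mM hexamethylene bisacetamide (HMBA) and were sampled on days 2, 4 and 6, with 2 arrays for each treatment and day. Each of these 18 arrays holds one log ratio per probe, of the treated cells over E14 cells without treatment. Replicate 1 carried the treated sample in Cy3 and replicate 2 in Cy5, and the authors turned the ratios to sample over reference.

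Differences below are in log2 and are printed as the difference ± its standard error (SE), from limma with Benjamini-Hochberg adjustment over all probes tested. A probe was called where the adjusted p was under 0.05. The labels do not say that arrays of a group come from separate cultures, so the p-values measure the spread between arrays, which may be technical. Both RNAi comparisons share the 5 vector arrays, and all 18 ratio arrays share the untreated reference. A level is compared within a probe only, since probes differ in their own brightness. These are bulk samples, in which fewer cells of a type and less RNA per cell cannot be told apart.

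Both knockdowns lowered their target. Pou5f1 lay between 11.31 and 11.51 in vector arrays and between 8.73 and 9.21 with Pou5f1 RNAi, a fall of -2.38 ± 0.10 (adjusted p = 1.1e-13), while the Nanog RNAi arrays gave 11.18 to 11.51. Nanog lay between 11.00 and 11.19 in vector arrays and between 9.14 and 9.47 with Nanog RNAi (-1.81 ± 0.08, adjusted p = 2.1e-12), and it also fell with Pou5f1 RNAi (-1.40 ± 0.09, adjusted p = 3.4e-11). Of 10 ES cell markers, 10 fell with Pou5f1 RNAi and 7 with Nanog RNAi. Their mean level per array was 10.99 to 11.08 in vector, 10.36 to 10.44 with Nanog RNAi and 9.09 to 9.30 with Pou5f1 RNAi. Trophectoderm markers moved with the groups too, since 11 of 11 rose with Pou5f1 RNAi and 10 of 11 with Nanog RNAi, and their mean per array went from 5.49 to 5.59 in vector to 6.44 to 6.89 and to 8.80 to 9.0. Primitive endoderm markers had array means of 6.65 to 6.78, 6.96 to 7.26 and 6.22 to 6.33 in the same order, with 5 of 10 raised by Nanog RNAi, and 2 raised and 6 lowered by Pou5f1 RNAi. Fibroblast markers gave 5.33 to 5.43, 5.39 to 5.48 and 5.53 to 5.55. Of these 12 genes 2 rose and 3 fell with Pou5f1 RNAi, with a median of -0.14, and Acta2, an actin of smooth muscle, was 3.34 higher there. Neural markers had array means of 6.16 to 6.31, 5.83 to 6.03 and 5.58 to 5.70, and of 7 genes 4 fell with Nanog RNAi while 2 rose and 2 fell with Pou5f1 RNAi. Mesoderm markers had array means of 4.93 to 5.01, 4.99 to 5.15 and 5.25 to 5.36, and of 5 genes 2 rose with Nanog RNAi and 1 with Pou5f1 RNAi. The part of these shifts in the IGF results was not tested.

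In the RNAi arrays the largest changes were in binding protein genes, and these genes did not share a direction. Igfbp4 rose with Pou5f1 RNAi and fell with Nanog RNAi, Igfbp3 did the reverse, and Igfbp2 fell with both. Igf1r and Irs1 rose with Pou5f1 RNAi, and Igf1 was called with neither knockdown. Of the 24 probe sets, 15 were called with Pou5f1 RNAi, 11 higher and 4 lower, where 31.6% of all 45037 tested probe sets were called (16% higher and 15.6% lower). With Nanog RNAi 8 of 24 were called, 2 higher and 6 lower, against 15.6% of all (8.8% higher and 6.78% lower). Between the knockdowns 14 of 24 differed, 12 higher and 2 lower with Pou5f1 RNAi, against 29.5% of all (15% higher and 14.5% lower). The median difference of the 24 was 0.14 with Pou5f1 RNAi and -0.09 with Nanog RNAi, beside -0.04 and -0.02 over all probe sets.

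**Figure D1:**
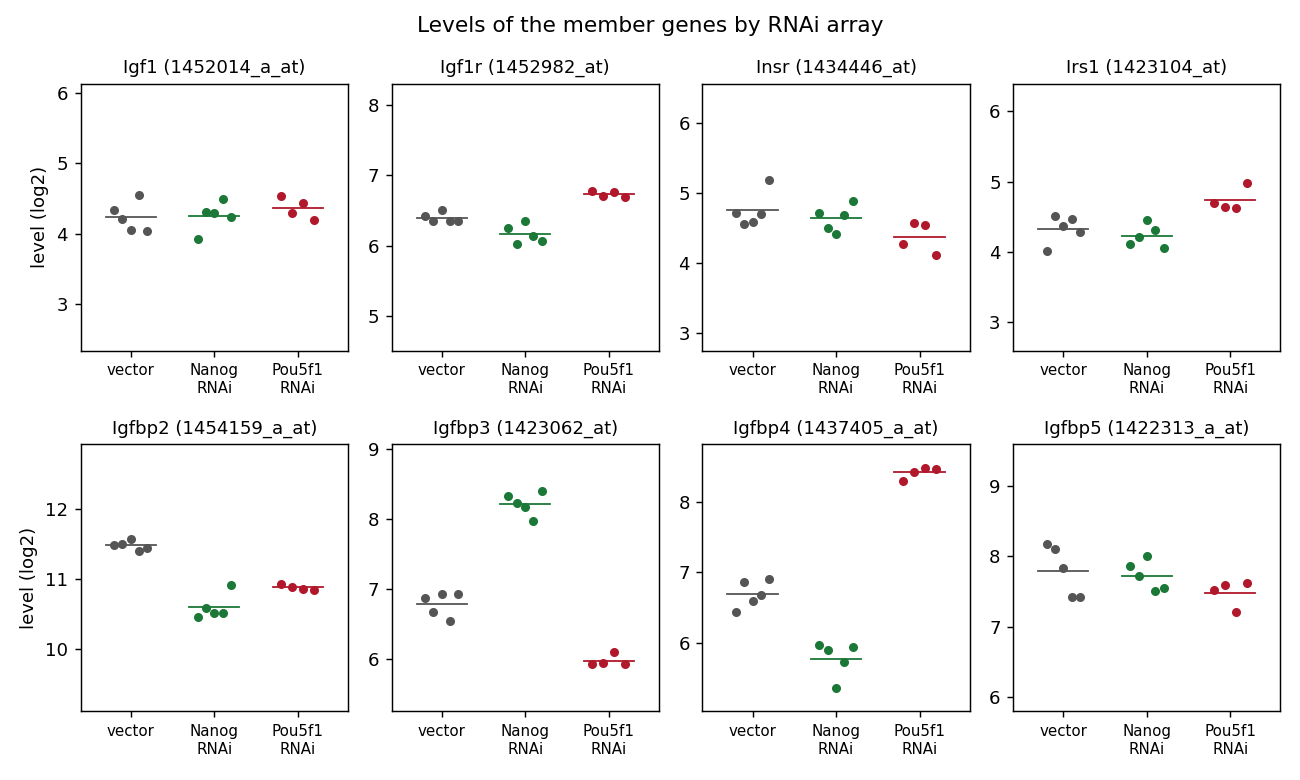
Level in log2 of the lead probe set of each gene (the one with the highest mean over the 14 arrays) on every RNAi array; points are arrays, lines are group means, and each panel spans the same number of log2 units. The 4 Pou5f1 RNAi arrays of Igfbp4 lie between 8.30 and 8.49 and its 5 Nanog RNAi arrays between 5.35 and 5.96, on either side of vector, and Igfbp3 lies the other way round.

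Igf1, the secreted ligand made mainly by liver, was dim on these arrays. Its lead probe set 1452014_a_at gave 4.04 to 4.55 in vector arrays, 3.92 to 4.50 with Nanog RNAi and 4.20 to 4.54 with Pou5f1 RNAi, and its vector mean stood at percentile 41.6 of all probe sets. The other 3 probe sets ranged over all 14 arrays from 3.81 to 4.39 (1419519_at), 3.31 to 3.73 (1437401_at) and 2.99 to 3.31 (1434413_at). The groups overlapped on each of the 4 probe sets, and none was called in any of the 3 comparisons.

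Igf1r encodes the receptor through which IGF1 and IGF2 signal, and 3 of its 5 probe sets were called higher with Pou5f1 RNAi. On the lead probe set 1452982_at the vector arrays read 6.42, 6.35, 6.51, 6.35 and 6.35, the Nanog RNAi arrays 6.25, 6.03, 6.35, 6.14 and 6.07, and the Pou5f1 RNAi arrays 6.78, 6.70, 6.76 and 6.69. All 4 Pou5f1 RNAi arrays stood above all others, by 0.34 ± 0.08 over vector (adjusted p = 0.0016) and by 0.57 over Nanog RNAi (adjusted p = 5.6e-06). The Nanog RNAi arrays were lower than vector by a called but small difference of -0.23 ± 0.07 (adjusted p = 0.037), with replicate 3 at the level of vector. That call was lost without vector replicate 1 (-0.22, adjusted p = 0.066) or 3 (-0.20, adjusted p = 0.1), and without Nanog RNAi replicate 2 (-0.19, adjusted p = 0.11), 4 (-0.22, adjusted p = 0.072) or 5 (-0.20, adjusted p = 0.089). It was also lost with arrays centred on their median (-0.21, adjusted p = 0.061), and, at the same difference, with a variance trend or with only these 2 groups in the fit (adjusted p = 0.075 for each).

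The larger receptor changes were on dimmer probe sets. Igf1r 1426565_at read 5.02, 4.99, 5.25, 5.28 and 5.10 in vector, 5.15, 4.85, 5.18, 5.21 and 5.23 with Nanog RNAi, and 5.76, 5.77, 6.29 and 6.23 with Pou5f1 RNAi. Again the Pou5f1 RNAi arrays did not overlap with the others, at 0.89 ± 0.12 over vector (adjusted p = 3e-06). On 1428967_at the rise was 0.56 ± 0.13 (adjusted p = 0.0024), from 4.89 to 5.62 in vector to 5.60 to 5.97, so that the highest vector array touched the lowest Pou5f1 RNAi array. The remaining probe sets, 1446303_at (3.55 to 4.38 over all arrays) and 1452108_at (3.77 to 4.45), were not called in any RNAi comparison.

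Insr, the insulin receptor gene, was called on 1 of 3 probe sets. On 1434446_at the vector arrays read 4.71, 4.56, 4.59, 4.70 and 5.19, the Nanog RNAi arrays 4.72, 4.50, 4.41, 4.68 and 4.88, and the Pou5f1 RNAi arrays 4.27, 4.57, 4.55 and 4.12. Pou5f1 RNAi was lower by -0.38 ± 0.13 (adjusted p = 0.028), with the ranges meeting at 4.56 and 4.57, and Nanog RNAi differed from vector by -0.11 ± 0.12 (adjusted p = 0.64). The call was lost without vector replicate 5 (-0.27, adjusted p = 0.075), Pou5f1 RNAi replicate 1 (-0.34, adjusted p = 0.083) or replicate 4 (-0.29, adjusted p = 0.13), and with arrays centred on their median (-0.36, adjusted p = 0.054). The other Insr probe sets, 1421380_at and 1450225_at, ranged from 3.58 to 3.92 and from 4.04 to 4.58 and were not called.

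Irs1, which docks PI3K to the activated receptors, has 1 probe set. Vector arrays read 4.01, 4.51, 4.37, 4.47 and 4.28, Nanog RNAi arrays 4.12, 4.22, 4.45, 4.31 and 4.06, and Pou5f1 RNAi arrays 4.70, 4.64, 4.63 and 4.98. Every Pou5f1 RNAi array was above every other array. Irs1 rose with Pou5f1 RNAi by 0.41 ± 0.11 (adjusted p = 0.005), and it differed between the knockdowns by 0.51 ± 0.11 (adjusted p = 0.00083), while Nanog RNAi gave -0.10 ± 0.10 (adjusted p = 0.63).

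The upstream sequences of the binding protein genes that moved and of Igf1r are printed here so that these differently moving genes can be read beside each other. Each is the 250 bases before the listed start nearest to the gene's edge in RefSeq (GRCm38.p6), 5′ to 3′ on the gene's strand. That start is at the edge for Igfbp2, which has 2 listed starts, and for Igf1r. It lies 1575 bases from the edge for Igfbp3 and 1239 for Igfbp4, so these windows may not precede the gene's first start. Of the 8 genes, 7 had an entry in the table. The strand and place are chr1:72824230-72824479 on the plus strand for Igfbp2, chr11:7213924-7214173 on the minus strand for Igfbp3, chr11:99040994-99041243 on the plus strand for Igfbp4 and chr7:67952007-67952256 on the plus strand for Igf1r. Capitals mark matches to motifs that were searched on both strands.
Igfbp2: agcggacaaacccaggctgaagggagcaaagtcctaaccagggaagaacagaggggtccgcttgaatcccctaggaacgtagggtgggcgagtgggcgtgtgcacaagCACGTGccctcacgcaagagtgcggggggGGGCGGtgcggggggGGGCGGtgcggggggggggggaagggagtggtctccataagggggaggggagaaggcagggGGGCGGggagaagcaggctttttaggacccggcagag
Igfbp3: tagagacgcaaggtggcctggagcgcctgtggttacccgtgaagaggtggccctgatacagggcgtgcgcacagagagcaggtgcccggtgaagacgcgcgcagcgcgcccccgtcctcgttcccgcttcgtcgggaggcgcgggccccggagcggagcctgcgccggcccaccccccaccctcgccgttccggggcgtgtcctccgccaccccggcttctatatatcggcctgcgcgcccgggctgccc
Igfbp4: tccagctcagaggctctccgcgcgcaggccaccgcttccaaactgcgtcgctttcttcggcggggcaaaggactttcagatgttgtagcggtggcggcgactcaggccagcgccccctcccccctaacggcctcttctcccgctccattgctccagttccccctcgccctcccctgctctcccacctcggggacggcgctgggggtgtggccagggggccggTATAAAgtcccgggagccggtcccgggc
Igf1r: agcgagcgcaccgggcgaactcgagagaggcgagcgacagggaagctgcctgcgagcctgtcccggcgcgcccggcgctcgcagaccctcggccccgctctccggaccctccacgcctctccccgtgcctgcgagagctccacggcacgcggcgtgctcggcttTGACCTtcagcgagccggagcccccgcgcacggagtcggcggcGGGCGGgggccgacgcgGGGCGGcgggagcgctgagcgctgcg

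The Igfbp4 window holds TATAAA with its first base at position -28 from the start, a motif found in 12.4% of 32851 RefSeq windows of the same length. The Igfbp2 window holds GGGCGG, the GC box, at -113, -98 and -37 (the motif is in 32.7% of windows) and CACGTG, an E-box, at -142 (6.02%). The Igf1r window holds GGGCGG at -43 and -26 and, on the reverse strand, AGGTCA at -86 (14%). The Igfbp3 window held no match to these 4 or to the octamer ATGCAAAT (1.6%), and none of the 7 windows matched the octamer. The windows are rich in G and C, with 67.2% in Igfbp2, 73.2% in Igfbp3, 69.2% in Igfbp4 and 77.6% in Igf1r beside a median of 52.4% over all windows. A match is a description of these letters and was not tied to any change in level.

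Igfbp4, a binding protein that in general holds IGF away from its receptor, had the largest changes of the 24 probe sets in both RNAi comparisons that involve Pou5f1. Its lead probe set 1437405_a_at read 6.44, 6.86, 6.59, 6.68 and 6.90 in vector, 5.96, 5.89, 5.35, 5.72 and 5.94 with Nanog RNAi, and 8.30, 8.43, 8.49 and 8.47 with Pou5f1 RNAi. The 3 groups were fully apart, with Nanog RNAi lowest and Pou5f1 RNAi highest. Pou5f1 RNAi raised it by 1.73 ± 0.12, a fold of 3.32 (adjusted p = 1.7e-10), and Nanog RNAi lowered it by -0.92 ± 0.11, a fold of 1.9 (adjusted p = 3.8e-06). The difference between the knockdowns was 2.65 ± 0.12 (adjusted p = 2.8e-13).

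The same order was seen on 1423756_s_at, with 5.16, 4.99, 5.15, 5.22 and 5.40 in vector, 4.28, 4.18, 3.98, 4.49 and 4.53 with Nanog RNAi, and 7.06, 7.35, 7.56 and 7.40 with Pou5f1 RNAi. Its rise was 2.16 ± 0.12 (adjusted p = 5.2e-12), its fall -0.89 ± 0.11 (adjusted p = 6.1e-06) and the difference 3.05 ± 0.12 (adjusted p = 2.9e-14). All 6 Igfbp4 probe sets were called higher with Pou5f1 RNAi, the smallest rise being 0.29 on 1421991_a_at (adjusted p = 0.0071), and on each of them the 4 Pou5f1 RNAi arrays stood above all vector arrays. With Nanog RNAi 4 of 6 fell, 1423757_x_at by -0.50 (adjusted p = 0.0054) with its groups overlapping and 1437406_x_at by -0.74 (adjusted p = 5.5e-06) with its groups apart. The other two, 1421991_a_at and 1421992_a_at, gave -0.07 (adjusted p = 0.63) and -0.09 (adjusted p = 0.6) with Nanog RNAi.

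Igfbp3, the main carrier of IGF in serum, ran the other way. Its lead probe set 1423062_at read 6.88, 6.67, 6.93, 6.55 and 6.93 in vector, 8.33, 8.23, 8.17, 7.97 and 8.39 with Nanog RNAi, and 5.94, 5.95, 6.10 and 5.93 with Pou5f1 RNAi. The 3 groups did not overlap, and here Nanog RNAi was highest. Nanog RNAi raised it by 1.42 ± 0.09, a fold of 2.68 (adjusted p = 5.9e-10), and Pou5f1 RNAi lowered it by -0.81 ± 0.10, a fold of 1.76 (adjusted p = 8.4e-07), which put the knockdowns -2.24 ± 0.10 apart (fold 4.71, adjusted p = 2.4e-13).

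The other Igfbp3 probe set, 1458268_s_at, read 6.53, 6.62, 6.61, 6.39 and 6.49 in vector, 8.01, 7.99, 8.18, 7.82 and 8.13 with Nanog RNAi, and 5.99, 6.02, 6.21 and 6.21 with Pou5f1 RNAi. Its groups were also apart, at 1.50 ± 0.08 with Nanog RNAi (adjusted p = 4.4e-11) and -0.42 ± 0.09 with Pou5f1 RNAi (adjusted p = 0.00047). Both probe sets of Igfbp3 thus kept one order of groups, opposite to that of the Igfbp4 lead. Primitive endoderm marker levels, given above, also ran higher with Nanog RNAi and lower with Pou5f1 RNAi, and their part in the Igfbp3 values was not tested.

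Igfbp2, a binding protein that is abundant in fetal tissues, was bright, at percentile 99 of all probe sets in vector. It read 11.49, 11.50, 11.57, 11.40 and 11.44 in vector, 10.46, 10.59, 10.52, 10.52 and 10.91 with Nanog RNAi, and 10.93, 10.89, 10.86 and 10.85 with Pou5f1 RNAi. Both knockdowns lay below all vector arrays, and they overlapped each other only through Nanog RNAi replicate 5. The fall was -0.88 ± 0.08 with Nanog RNAi (fold 1.84, adjusted p = 9.6e-08) and -0.60 ± 0.08 with Pou5f1 RNAi (fold 1.51, adjusted p = 8.3e-06). The fall with Nanog RNAi was the larger by 0.28 ± 0.08 (adjusted p = 0.014).

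Igfbp5, a binding protein that also binds extracellular matrix, had a bright and a dim probe set. The bright one, 1422313_a_at, read 8.18, 8.10, 7.83, 7.43 and 7.42 in vector, 7.86, 7.72, 8.0, 7.51 and 7.55 with Nanog RNAi, and 7.53, 7.59, 7.21 and 7.62 with Pou5f1 RNAi. The vector arrays themselves spread over much of this range, and the groups overlapped. Neither knockdown was called (-0.31 ± 0.15 with Pou5f1 RNAi, adjusted p = 0.14, and -0.06 ± 0.14 with Nanog RNAi, adjusted p = 0.84). Without vector replicate 4 or 5 the Pou5f1 RNAi difference was -0.40 and was called (adjusted p = 0.047 and 0.038). The dim one, 1452114_s_at, stood at percentile 9.09 in vector and read 3.31, 3.18, 3.10, 3.05 and 3.26 in vector, 3.22, 2.94, 3.06, 2.94 and 2.99 with Nanog RNAi, and 3.41, 3.75, 3.70 and 3.56 with Pou5f1 RNAi. Pou5f1 RNAi was called 0.42 ± 0.09 higher there (adjusted p = 0.00058) with no overlap. As that probe set is so dim, no direction is given here for Igfbp5 as a gene.

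**Figure D2:**
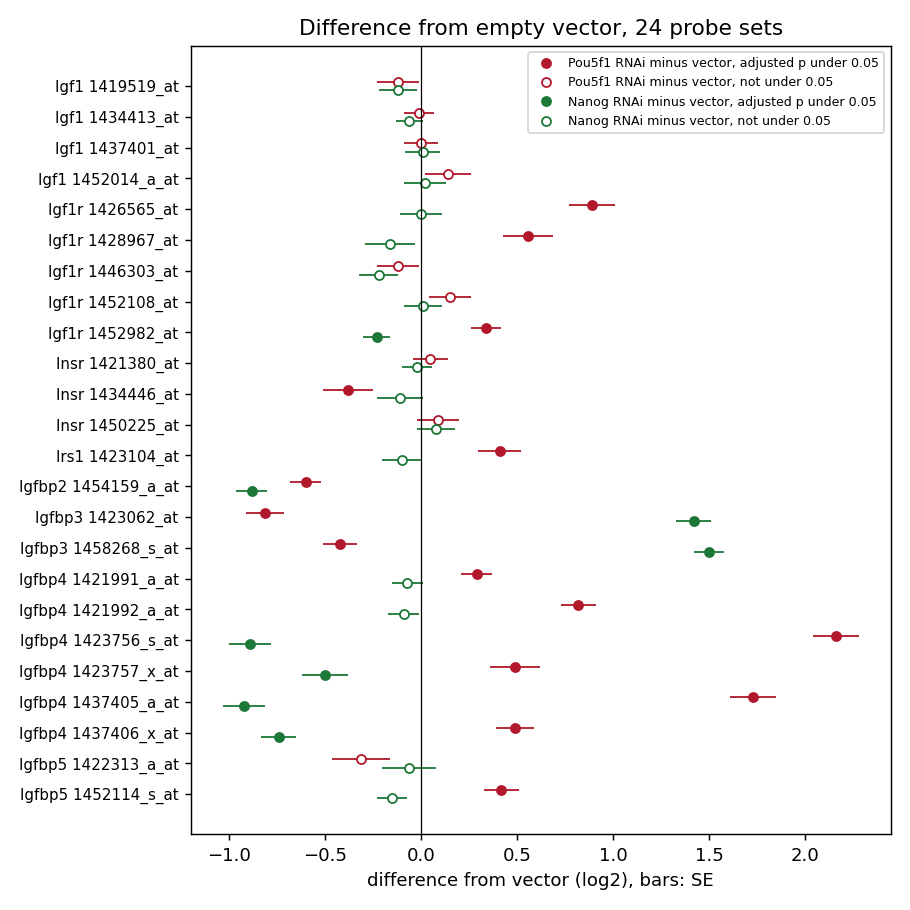
Difference from empty vector in log2 for each of the 24 probe sets, with Pou5f1 RNAi in red and Nanog RNAi in green; bars are SE and filled points have an adjusted p under 0.05. The 6 Igfbp4 probe sets lie right of 0 in red, and both Igfbp3 probe sets lie right of 0 in green and left of 0 in red.

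By the correlation of log2 levels over the 14 RNAi arrays, the genes most like each lead probe set were named as a description. The 14 arrays form 3 groups, so a high r can follow the group means alone. The spread within groups enters r as well. On the lead probe sets all groups overlapped for Igfbp5, Igf1 and Insr. Vector and Nanog RNAi overlapped for Irs1 and met for Igf1r, and the knockdowns overlapped for Igfbp2. Igfbp4 was most like Cfl2 (r = 0.993), Vcl (0.990) and Slc38a1 (0.990), of which Cfl2 and Vcl encode actin cytoskeleton proteins. Igfbp3 was most like Selenop (0.993), Car3 (0.993) and Dcaf12l1 (0.992), and Igfbp2 was most like Idi1 (0.984), an enzyme of isoprenoid synthesis, Aldoa (0.982), a glycolytic enzyme, and Slc16a3 (0.976), a lactate transporter. Igf1r was nearest to Sox4 (0.958), Magt1 (0.953) and Svil (0.944), and Igfbp5 to Aldh2 (0.971), Akap13 (0.957) and Rab38 (0.956). Irs1 was nearest to Ccl25 (0.950), Txnrd2 (0.946) and Mansc1 (0.940). Values were lower for Insr (Tufm 0.899, Secisbp2 0.892, Pmpcb 0.878) and Igf1 (Paqr5 0.877, Dnah11 0.853, 4833439F03Rik 0.851).

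Other genes of the pathway were followed as a list of 49, of which 45 could be tested by RNAi. Each was read by its brightest probe set, whereas the shares over all probe sets include dim ones, so these shares are not like for like. A fit to only the probe sets at or above the median mean level called 12464 with Pou5f1 RNAi, beside 14240 of all 45037. It called 6845 beside 7017 with Nanog RNAi, and 11650 beside 13282 between the knockdowns. The list shares here and below are thus not read as an excess. With Pou5f1 RNAi 21 rose and 4 fell, which is 55.6% of the list where 31.6% of all probe sets were called (16% higher and 15.6% lower), and the median was 0.16 beside -0.04 over all probe sets. Igf2, the other IGF ligand, rose by 6.32 ± 0.09 (adjusted p = 6.4e-21), Akt1, a kinase downstream of PI3K, by 2.30 ± 0.08 (adjusted p = 1e-14), Pik3r3, a PI3K regulatory subunit, by 1.84 ± 0.12 and the adaptor Irs3 by 1.62 ± 0.11. By role, beside the same 16% higher and 15.6% lower, 7 of 10 adaptors rose and 1 fell, 6 of 9 PI3K and AKT genes rose and 1 fell, and 6 of 12 mTOR and FoxO genes rose and 1 fell. Of 6 genes for binding protein proteases and their inhibitors 0 rose and 1 fell, the inhibitor Stc2 (-0.40 ± 0.10, adjusted p = 0.0044). The other three that fell were Irs4 (-0.29), Eif4ebp1 (-0.24) and Pik3r2 (-0.27). Their calls were lost without Pou5f1 RNAi replicate 4 for Irs4 (-0.21, adjusted p = 0.079) and Eif4ebp1 (-0.20, adjusted p = 0.085), without Pou5f1 RNAi replicate 2 for Eif4ebp1 (-0.23, adjusted p = 0.052), and without vector replicate 1 (-0.24, adjusted p = 0.054) or Pou5f1 RNAi replicate 1 (-0.23, adjusted p = 0.077) for Pik3r2.

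With Nanog RNAi 11 rose and 1 fell, which is 26.7% of the list where 15.6% of all probe sets were called (8.8% higher and 6.78% lower), and the median was 0.08. Igf2 again led, at 2.37 ± 0.08 (adjusted p = 5.8e-14), followed by Akt1 (0.58 ± 0.08), the phosphatase Ptpn11 (0.58 ± 0.08) and Pik3r3 (0.79 ± 0.11). The gene that fell was Pdpk1, the kinase that activates AKT, at -0.29 ± 0.09 (adjusted p = 0.032). This call was lost without vector replicate 3, 4 or 5 or Nanog RNAi replicate 1, 3 or 5, at -0.29 to -0.23 with an adjusted p of 0.058 to 0.091. Between the knockdowns 17 were higher and 4 lower with Pou5f1 RNAi, 46.7% of the list beside 29.5% of all. Igf2 differed by 3.95 ± 0.09 and Akt1 by 1.71 ± 0.08 in that direction, while Igf2r, the receptor that clears IGF2, was lower by -0.60 ± 0.15 (adjusted p = 0.0039).

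On the differentiation arrays 8 of the 12 member probes, for 7 of the 8 genes, had a value in every treatment and day and could be tested. A base of 2 was assumed for these log ratios, as no source used here states it, and 0 means the level of untreated E14 cells. The SE of a mean over days rests on how far the paired arrays of a day lie apart and takes no account of how far days differ. DMSO day 4 replicate 2 held 11257 values where the other 17 arrays held 15679 to 20019, and it gave none for Igfbp4, Insr and Irs1, whose DMSO day 4 value is 1 array. Replicate numbers mark the dye orientation, so that a fit with the orientation as a block was made as well. Its result is given for part of the calls that it changes.

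Igfbp4 and the Igf1r probe 1102774 rose with all 3 inducers, Igfbp3 with RA and DMSO, Igfbp5 with RA and HMBA, and Igfbp2 with RA, in their means over days. The other tested Igf1r probe, 1114336, was called higher with DMSO and HMBA but not with RA. With RA 5 of 8 member probes were called, all higher, where 25.1% of all 16657 tested probes were called in either direction and 14.6% higher. With DMSO it was 4 of 8, all higher, against 17% and 9.4%, and with HMBA 4 of 8, all higher, against 24.8% and 13.4%. With the dye orientation as a block the counts were 6 with RA, 7 with DMSO and 7 with HMBA, of which 1 was lower, and the shares of all probes were 49.3%, 41.1% and 47.9%. The member medians were 0.74, 0.50 and 0.48 for RA, DMSO and HMBA, beside -0.02, 0.02 and 0.00 over all probes. ES cell markers fell alongside, 9 of 10 with RA, 9 with DMSO and 10 with HMBA. Fibroblast markers had array means of 1.02 to 2.35, 0.07 to 0.46 and 0.46 to 1.11. Of 10 fibroblast markers 6 rose with RA, 3 rose and 1 fell with DMSO, and 4 rose with HMBA. Their medians were 1.64, 0.20 and 0.10. Trophectoderm markers had array means of 0.51 to 1.54, -0.43 to 0.44 and 0.29 to 1.84, and primitive endoderm markers 0.47 to 2.13, 0.02 to 0.58 and 0.31 to 0.80. Of 9 trophectoderm markers 5 rose with RA, 1 rose and 1 fell with DMSO, and 4 rose and 1 fell with HMBA. Of 8 primitive endoderm markers 5 rose and 1 fell, 2 rose and 1 fell, and 3 rose and 1 fell. Their medians were 1.38, 0.26 and 0.14. Of 7 neural markers 1 rose and 2 fell with RA, and 1 rose and 1 fell with each other inducer. The part of these markers in the IGF ratios was not tested.

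**Figure D3:**
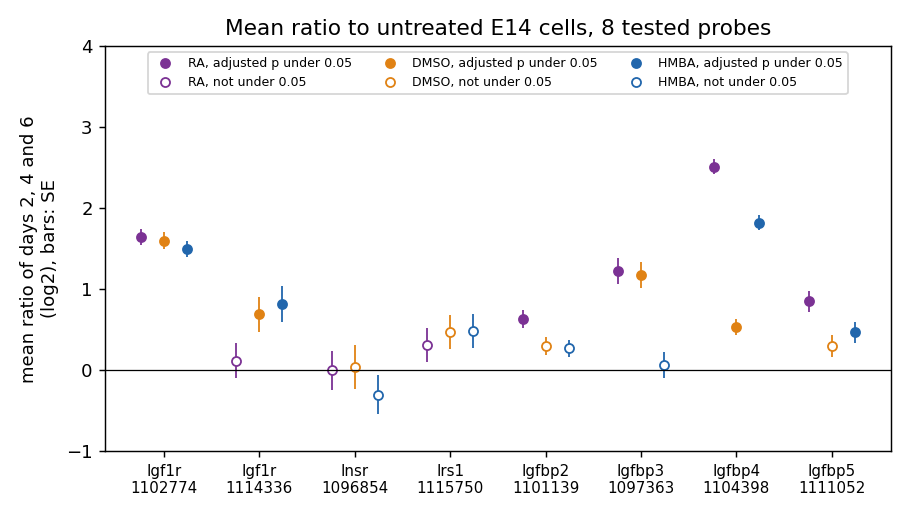
Mean ratio to untreated cells over days 2, 4 and 6 in log2 for the 8 tested member probes, by treatment; bars are SE and filled points have an adjusted p under 0.05. Igfbp4 runs from 0.53 with DMSO to 2.51 with RA, whereas the Igf1r probe 1102774 lies between 1.50 and 1.64 with all 3.

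The Igf1r probe 1102774 rose by nearly the same mean with each inducer. RA arrays read 1.34 and 1.10 on day 2, 1.88 and 2.32 on day 4, and 1.57 and 1.63 on day 6. DMSO arrays read 0.20 and 0.54, then 1.92 and 2.37, then 2.13 and 2.44, and HMBA arrays 0.82 and 1.17, then 2.08 and 2.40, then 1.13 and 1.40. All 18 were above 0, and day 4 was the peak with RA and HMBA but not with DMSO. The means were 1.64 ± 0.10 for RA (adjusted p = 2.8e-07), 1.60 for DMSO (adjusted p = 6.3e-07) and 1.50 for HMBA (adjusted p = 6.5e-07). The differences between inducers, 0.04 ± 0.15 for RA against DMSO (adjusted p = 0.97), 0.14 ± 0.15 for RA against HMBA (adjusted p = 0.92) and 0.10 ± 0.15 for DMSO against HMBA (adjusted p = 1), were within about their SE.

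By day, on day 2 RA gave 1.22 ± 0.18 (adjusted p = 0.0015) and HMBA 1.00 ± 0.18 (adjusted p = 0.0065), a call that was lost without either HMBA day 2 array (replicate 1, 1.17, adjusted p = 0.068, and replicate 2, 0.82, adjusted p = 0.23). DMSO gave 0.37 on day 2 (adjusted p = 0.61), and its later levels were 2.15 on day 4 and 2.28 on day 6. From day 2 to day 6 the probe rose with DMSO by 1.91 ± 0.26 (adjusted p = 0.0043), and this call was lost without DMSO day 2 replicate 1 (1.74, adjusted p = 0.059) or day 6 replicate 2 (1.76, adjusted p = 0.084). The same change was 0.38 with RA and 0.27 with HMBA, neither called. The test of these changes against each other gave -1.53 ± 0.36 for RA against DMSO (adjusted p = 0.24, and 0.0023 with the dye block) and 1.64 ± 0.36 for DMSO against HMBA (adjusted p = 0.15, and 0.0011 with the dye block), while RA against HMBA gave 0.12 ± 0.36 (adjusted p = 1, and 0.97 with the dye block). The plain fit called none of these tests, and with the block 1.96%, 2.63% and 1.35% of all probes were called. With arrays scaled to one spread DMSO against HMBA gave 1.92 and was called (adjusted p = 0.039). That setting called 34 of all probes, beside 33 in the plain fit. The drop with HMBA from day 4 to day 6 was -0.98 (adjusted p = 0.46, and 0.0074 with the block, which called 1.39% of all where the plain fit called 0.15%).

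The other complete Igf1r probe, 1114336, behaved less evenly. Its RA arrays read -0.21, 0.11, 1.34, -0.38, -0.22 and 0.10 in the order of days and replicates, its DMSO arrays 1.08, -0.04, 1.22, 0.80, 0.88 and 0.22, and its HMBA arrays 0.83, -0.21, 1.59, 1.31, 1.03 and 0.40. Replicate 1, with the sample in Cy3, read higher than replicate 2 on every DMSO and HMBA day. The mean was 0.12 ± 0.22 with RA (adjusted p = 0.76), 0.69 ± 0.22 with DMSO (adjusted p = 0.049) and 0.82 ± 0.22 with HMBA (adjusted p = 0.015). RA minus DMSO was -0.57 ± 0.31 (adjusted p = 0.44, and 0.05 with the dye block). RA minus HMBA was -0.70 ± 0.31 (adjusted p = 0.39, and 0.023 with the dye block). Both were called only with the block, which called 22.7% and 16.5% of all probes. The DMSO call was lost in 13 of 18 fits that left out 1 array, at 0.51 to 0.80 with an adjusted p of 0.057 to 0.22; it held only without a day 4 RA array, a day 2 HMBA array or DMSO day 2 replicate 2. It was also lost with arrays scaled to one spread (0.72, adjusted p = 0.07) and with a robust prior variance (adjusted p = 0.052). The HMBA call was lost without replicate 1 of HMBA day 2 (0.65, adjusted p = 0.092), day 4 (0.78, adjusted p = 0.056) or day 6 (0.72, adjusted p = 0.075). The incomplete Igf1r probes, 1108793 and 1109145, were not tested, and their available values ran from 0.10 to 1.16 and from 0.37 to 1.66, all above 0.

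Insr and Irs1 were not called with any inducer. Insr read between -0.87 and 0.84 with RA, between -0.53 and 0.49 with DMSO and between -0.95 and 0.29 with HMBA. Its values split by dye, with means of 0.48 in Cy3 and -0.48 in Cy5 for RA, 0.24 and -0.38 for DMSO, and 0.14 and -0.75 for HMBA. With the dye block it was called lower with HMBA (-0.30, adjusted p = 0.022). Irs1 probe 1115750 ran from -0.40 to 0.70 with RA, from 0.02 to 1.12 with DMSO and from 0.28 to 0.58 with HMBA, on 5 arrays each, and the dye block called it higher with RA (0.40, adjusted p = 0.015), DMSO (0.56, adjusted p = 0.0022) and HMBA (0.57, adjusted p = 0.0014). The other Irs1 probe (-0.69 to 1.31) and the Igf1 probe (-0.56 to 0.46, on 9 arrays) lacked values in some groups and were not tested.

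Igfbp4 was the one member probe called in all 3 comparisons between inducers. Its probe read 1.60 and 1.52 with RA on day 2, 2.66 and 3.21 on day 4, and 3.09 and 2.94 on day 6. DMSO gave 0.01 and 0.11 on day 2, -0.07 on the 1 array of day 4, and 1.68 and 1.53 on day 6. HMBA gave 0.18 and 0.19, then 2.92 and 3.15, then 2.21 and 2.28. Against untreated cells Igfbp4 was called higher on all 3 days with RA, on days 4 and 6 with HMBA and on day 6 with DMSO. Inducers were not tested against each other on day 2.

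The Igfbp4 means were 2.51 ± 0.09 with RA, a fold of 5.68 (adjusted p = 6.2e-09), 1.82 ± 0.09 with HMBA (fold 3.54, adjusted p = 8.2e-08) and 0.53 ± 0.10 with DMSO (fold 1.44, adjusted p = 0.0037). RA exceeded DMSO by 1.97 ± 0.14 (adjusted p = 4.7e-06), the one member probe called of 8 in that comparison, where 6.19% of all probes were called. RA exceeded HMBA by 0.68 ± 0.13 (adjusted p = 0.0098; with arrays scaled to one spread 0.55, adjusted p = 0.081), and DMSO was below HMBA by -1.29 ± 0.14 (adjusted p = 0.0005). On day 4 alone RA was 3.01 ± 0.27 above DMSO (adjusted p = 0.00012; 1 of 8 member probes called, 1.5% of all) and DMSO was -3.11 ± 0.27 below HMBA (adjusted p = 0.00039; 1 of 8, 0.384% of all), both on a single DMSO array.

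From day 2 to day 6 Igfbp4 rose with each inducer. The rise was 2.06 ± 0.22 with HMBA (adjusted p = 0.00055), the one member probe called of 8 beside 1.48% of all, and 1.55 ± 0.22 with DMSO (adjusted p = 0.0066), where 2 of 8 were called beside 0.955% of all. With RA it was 1.45 ± 0.22 (adjusted p = 0.0088), 1 of 8 beside 1.09% of all. The dye block called 3, 5 and 3 of 8 for RA, DMSO and HMBA in this change, beside 10.7%, 9.9% and 10% of all. The DMSO call was lost without any 1 of its 4 arrays of those days (day 2 replicates 1 and 2, 1.50 and 1.60; day 6 replicates 1 and 2, 1.48 and 1.63; adjusted p = 0.063 to 0.084). The RA call was lost without day 2 replicate 2 (1.41, adjusted p = 0.064), day 6 replicate 1 (1.38, adjusted p = 0.092) or replicate 2 (1.53, adjusted p = 0.072), and with arrays scaled to one spread (1.10, adjusted p = 0.14). From day 4 to day 6 the DMSO arrays gave 1.68 ± 0.27 (adjusted p = 0.052, and 0.00069 with the dye block; 0.0901% and 1.82% of all probes called) and the HMBA arrays gave -0.79 ± 0.22 (adjusted p = 0.6, and 0.049 with the dye block).

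**Figure D4:**
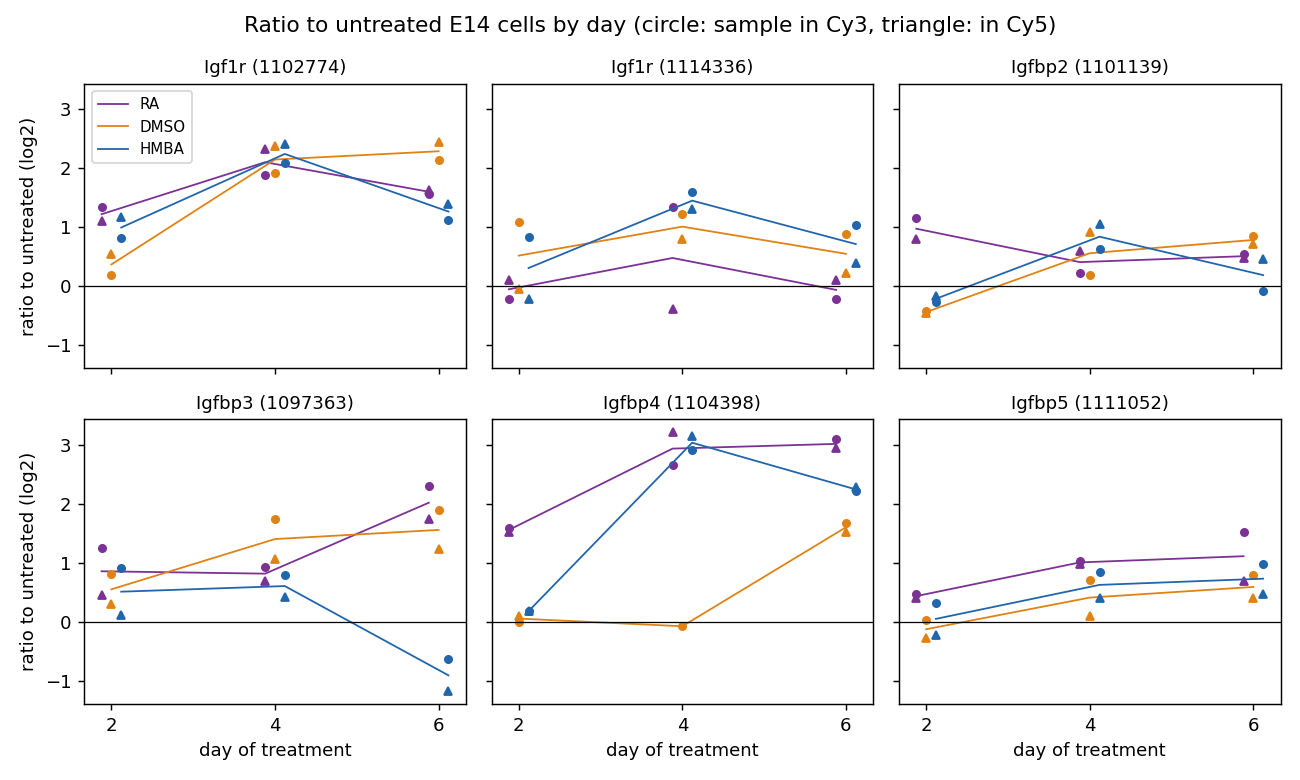
Ratio to untreated E14 cells in log2 on days 2, 4 and 6 for the tested probes of Igf1r and the 4 binding protein genes; circles are arrays with the sample in Cy3, triangles in Cy5, and lines join the means of a treatment. Igfbp4 with DMSO stays between -0.07 and 0.11 until day 4, and Igfbp3 with HMBA ends at -0.63 and -1.17 on day 6.

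Igfbp3 rose with RA and DMSO and ended below untreated cells with HMBA. Its RA arrays read 1.26 and 0.46 on day 2, 0.94 and 0.70 on day 4, and 2.30 and 1.74 on day 6. DMSO gave 0.81 and 0.30, then 1.74 and 1.07, then 1.89 and 1.23, while HMBA gave 0.91 and 0.12, then 0.80 and 0.42, then -0.63 and -1.17. All 12 RA and DMSO arrays and the first 4 of HMBA were above 0, and both HMBA arrays of day 6 were below it. The Cy3 array read higher than the Cy5 array for every treatment and day. Means in Cy3 and Cy5 were 1.50 and 0.96 for RA, 1.48 and 0.87 for DMSO, and 0.36 and -0.21 for HMBA.

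The Igfbp3 means were 1.23 ± 0.16 with RA (fold 2.35, adjusted p = 0.00011), 1.17 ± 0.16 with DMSO (fold 2.25, adjusted p = 0.00026) and 0.07 ± 0.16 with HMBA (adjusted p = 0.82). RA and DMSO differed by 0.06 ± 0.23 (adjusted p = 0.97). RA exceeded HMBA by 1.16 ± 0.23 (adjusted p = 0.012; with arrays scaled to one spread 0.97, adjusted p = 0.089); with Igfbp4 this makes 2 of 8 member probes beside 3.28% of all (4 of 8 and 16.5% with the dye block). DMSO exceeded HMBA by 1.10 ± 0.23 (adjusted p = 0.035), again 2 of 8 with Igfbp4, beside 1.45% of all. That call was lost with arrays scaled to one spread (1.09, adjusted p = 0.084) and in 12 of 18 fits that left out 1 array (0.97 to 1.21, adjusted p = 0.052 to 0.12). It held without an RA day 2 or day 6 array, DMSO day 4 replicate 2 or HMBA day 2 replicate 1.

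By day, Igfbp3 stood at 2.02 ± 0.28 with RA on day 6 (adjusted p = 0.00041). With DMSO it stood at 1.40 ± 0.28 on day 4 (adjusted p = 0.0092) and 1.56 ± 0.28 on day 6 (adjusted p = 0.0031), and these calls were lost without DMSO day 4 replicate 1 (1.07, adjusted p = 0.13) and day 6 replicate 1 (1.23, adjusted p = 0.14); the first was also lost with arrays scaled to one spread (1.26, adjusted p = 0.056). The HMBA value of day 6, -0.90 ± 0.28, missed the threshold (adjusted p = 0.055, and 1.6e-05 with the dye block, which called 32.9% of all probes). So did its change from day 2 to day 6, -1.42 ± 0.39 (adjusted p = 0.13, and 3.2e-05 with the dye block, which called 10% of all). The changes of the inducers differed by 2.58 ± 0.56 for RA against HMBA (adjusted p = 0.3, and 1.6e-05 with the dye block) and by 2.42 ± 0.56 for DMSO against HMBA (adjusted p = 0.18, and 1.5e-05 with the dye block). Of the 8 member probes the plain fit called 0 in each of these tests of a difference in change, where 0.03% and 0.198% of all probes were called. With the block 1 and 2 were called, beside 1.35% and 2.63% of all.

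Igfbp2, which fell with both knockdowns, was above untreated cells in the RA arrays. These read 1.15 and 0.80 on day 2, 0.22 and 0.60 on day 4, and 0.54 and 0.48 on day 6, a mean of 0.63 ± 0.11 (adjusted p = 0.0013). DMSO arrays read -0.42 and -0.45, then 0.20 and 0.92, then 0.86 and 0.71, and HMBA arrays -0.26 and -0.16, then 0.63 and 1.05, then -0.08 and 0.46. On day 2 Igfbp2 was thus above 0 with RA and below 0 on all 4 arrays of the other inducers. The mean of DMSO was 0.30 (adjusted p = 0.097, and 0.014 with the dye block). That of HMBA was 0.27 (adjusted p = 0.11, and 0.02 with the dye block). Both were called with the block but not in the plain fit. Without DMSO day 4 replicate 1 the DMSO mean was 0.42. In the means RA was not called against DMSO (0.33 ± 0.16, adjusted p = 0.36, and 0.081 with the dye block). Nor was RA called against HMBA (0.36 ± 0.16, adjusted p = 0.4, and 0.073 with the dye block).

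Single days of Igfbp2 rest on few arrays. RA day 2 gave 0.97 (adjusted p = 0.01; without replicate 1 0.80, adjusted p = 0.16), DMSO day 6 0.79 (adjusted p = 0.023; without replicate 1 0.71, adjusted p = 0.28, and without replicate 2 0.86, adjusted p = 0.19) and HMBA day 4 0.84 (adjusted p = 0.013; without replicate 1 1.05, adjusted p = 0.056, and without replicate 2 0.63, adjusted p = 0.31). From day 2 to day 6 DMSO changed it by 1.22 (adjusted p = 0.066, and 0.0017 with the dye block, which called 9.9% of all probes). The change with RA was -0.46 (adjusted p = 0.74). RA minus DMSO in this change was -1.69 ± 0.40 (adjusted p = 0.23, and 0.0062 with the dye block). In that test 0 of 8 member probes were called without the block, beside 0.102% of all.

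Igfbp5 was above untreated cells on all RA arrays, which read 0.47 and 0.41 on day 2, 1.03 and 0.99 on day 4, and 1.53 and 0.70 on day 6. DMSO arrays read 0.03 and -0.27, then 0.72 and 0.11, then 0.79 and 0.40, and HMBA arrays 0.32 and -0.21, then 0.85 and 0.41, then 0.99 and 0.48. The lowest array of both DMSO and HMBA was day 2 replicate 2. Here too the Cy3 array read higher than the Cy5 array for every treatment and day. Means in Cy3 and Cy5 were 1.01 and 0.70 for RA, 0.51 and 0.08 for DMSO, and 0.72 and 0.23 for HMBA. The mean was 0.85 ± 0.13 with RA (adjusted p = 0.00047), 0.47 ± 0.13 with HMBA (adjusted p = 0.021) and 0.30 ± 0.13 with DMSO (adjusted p = 0.17, and 0.0055 with the dye block). The HMBA call was lost without replicate 1 of HMBA day 2 (0.39, adjusted p = 0.11), day 4 (0.40, adjusted p = 0.097) or day 6 (0.39, adjusted p = 0.11). RA exceeded DMSO by 0.56 ± 0.19 (adjusted p = 0.13, and 0.0012 with the dye block, which called 22.7% of all probes). It exceeded HMBA by 0.38 ± 0.19 (adjusted p = 0.49, and 0.026 with the dye block, which called 16.5% of all).

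By day the member probes called, none of them lower, were 3, 3 and 4 of 8 on days 2, 4 and 6 with RA, beside 6.23%, 9.26% and 14.5% of all probes. With DMSO they were 0, 2 and 4, beside 1.97%, 6.72% and 10.2%. With HMBA they were 1, 4 and 2, beside 4.98%, 12.8% and 12.3%. The dye block called 5, 5 and 5 with RA, beside 22.6%, 29.4% and 40.4% of all, 1, 5 and 6 with DMSO, beside 10.3%, 25.6% and 31.1%, and 2, 7 and 5 with HMBA, of which 1 on day 6 was lower, beside 21.3%, 33.3% and 32.9%. Igfbp4 and Igf1r 1102774 were among those called on every RA day, and both were called on days 4 and 6 with HMBA.

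Of the 49 other pathway genes 39 could be tested on the differentiation arrays. With RA 11 rose and 2 fell, with DMSO 5 rose and 1 fell, and with HMBA 12 rose and 1 fell, which is 33.3%, 15.4% and 33.3% of the list beside 25.1%, 17% and 24.8% of all probes. With the dye block the counts were 14 and 5, 8 and 3, and 16 and 4, or 48.7%, 28.2% and 51.3% beside 49.3%, 41.1% and 47.9% of all, so that the shares of the list lay near or below those of all probes in DMSO and, with the block, in RA. The list medians were 0.07, 0.09 and 0.13, beside -0.02, 0.02 and 0.00 over all probes. The adaptor Irs2 rose with RA (1.80 ± 0.18), DMSO (1.75 ± 0.20) and HMBA (2.23 ± 0.18, adjusted p = 3.5e-06), as did Gsk3b, a kinase that AKT restrains, at 1.20 ± 0.12, 0.74 ± 0.12 and 1.09 ± 0.12. Grb10, an adaptor that dampens signalling of the insulin and IGF receptors, rose with RA by 2.19 ± 0.10 (adjusted p = 1.4e-08) and was 2.36 ± 0.14 higher with RA than with DMSO (adjusted p = 5.9e-07) and 1.55 ± 0.14 higher than with HMBA (adjusted p = 4e-05).

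Htra1, a secreted protease that can cut binding proteins, rose with RA by 1.31 ± 0.11 (adjusted p = 5.5e-06) and fell with DMSO by 0.73 ± 0.13 (adjusted p = 0.0019). The difference of RA from DMSO for Htra1 was 2.05 ± 0.17 (adjusted p = 2e-05). Eif4ebp1, a translation repressor that mTOR inactivates, fell with HMBA by 0.73 ± 0.17 (adjusted p = 0.0062) and with RA by 0.52 ± 0.17 (adjusted p = 0.04). The RA call for Eif4ebp1 was lost in 6 of 18 fits that left out 1 array (-0.59 to -0.32, adjusted p = 0.052 to 0.19), those without RA day 2 replicate 2, either RA day 4 array, RA day 6 replicate 2 or either HMBA day 2 array. Igf2, whose RNAi changes were the largest of the list, gave -0.38 ± 0.13 with RA (adjusted p = 0.045), a call lost in 13 of 18 such fits (-0.38 to -0.27, adjusted p = 0.053 to 0.22) and kept only without replicate 1 of an RA day or a DMSO day 4 array.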

How the data were processed

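RNAi levels are log2 values that the authors made with RMA, per the submitters' processing notes, on Affymetrix mouse arrays. The deposited ratios are treated as log2 values by assumption, since no source used here states their base; the authors turned them to sample over reference, per the labels. No source used here states how their background was corrected or each array normalised. Neither platform gives counts, so the number of arrays limits the precision.

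Of 45101 probe sets 34958 name 1 gene, 932 several and 9211 none, and 45037 were tested after 64 controls were set aside. Of 21106 ratio probes 16345 name 1 gene, 125 several and 4636 none, and 16657 with a value in every group were tested, 10763 with all 18 values. The labels give each array's group, day and dose. All 14 RNAi arrays, or all 18 ratio arrays, entered one fit on group means in limma 3.58.1 (lmFit, eBayes; R 4.3.3), tested on simulated data, with Benjamini-Hochberg adjustment over all probes. Plots used Python 3.11.15 with matplotlib 3.10.9.

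All member probes are described, each gene led by its brightest RNAi probe set or its most complete ratio probe. Pathway genes are named in the order of p, at most 4 per comparison and direction, and the 3 genes most like a member by Pearson's r among probe sets of 1 gene. Members and lists were chosen with earlier results of these data known. The 8 comparisons between single days, or between changes over days other than day 6 against day 2 within a treatment, were added after values were seen.

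Replicate numbers were checked for pairing. On the ratio arrays deviations of the same number correlated at 0.505 to 0.92 in 36 of 36 pairs of groups; the number is the dye orientation per the labels, and it is the block used. On the RNAi arrays 5 of 13 pairs exceeded 0.1 (-0.246 to 0.437). Vector with Nanog RNAi gave 0.168, 0.201, 0.089, 0.437 and 0.39 for replicates 1 to 5, and pairs with Pou5f1 RNAi gave -0.246 to 0.201. The labels do not say that RNAi replicate numbers pair samples, so the main fit has no block there. Whether vector and Nanog RNAi arrays of a number share a batch was not tested. Alternatives were the block, median centring or scaling, a filter on low values, other variance settings, complete probes only, and leaving out each array.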

Additional observations from a re-analysis of the deposited data

Results flagged for a closer look

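Of 72 groups of 4 or 5 RNAi arrays that were examined, 6 held 1 array whose gap to its nearest neighbour was large for the range of the group, and chance alone would mark about 1 in 20. These were Igfbp3 1423062_at in Pou5f1 RNAi replicate 3 (6.10, nearest 5.95), Igf1r 1426565_at in Nanog RNAi replicate 2 (4.85, nearest 5.15) and Igf1 1434413_at in Nanog RNAi replicate 4 (2.99, nearest 3.20). The others were Insr 1434446_at in vector replicate 5 (5.19, nearest 4.71), Igf1 1437401_at in Pou5f1 RNAi replicate 4 (3.31, nearest 3.67) and Igfbp2 in Nanog RNAi replicate 5 (10.91, nearest 10.59).

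Several effects differed between the knockdowns by the test of the difference itself, here as Pou5f1 RNAi minus Nanog RNAi in log2. For Igfbp4 the difference was 3.05 on 1423756_s_at, 2.65 on 1437405_a_at, 1.23 on 1437406_x_at, 0.99 on 1423757_x_at, 0.90 on 1421992_a_at and 0.37 on 1421991_a_at. For Igfbp3 it was -2.24 on 1423062_at and -1.92 on 1458268_s_at. For Igf1r it was 0.89 on 1426565_at, 0.71 on 1428967_at and 0.57 on 1452982_at. The remaining ones were Igfbp5 1452114_s_at at 0.58, Irs1 at 0.51 and Igfbp2 at 0.28.

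Between inducers, Igfbp4 differed by 1.97 for RA minus DMSO, 0.68 for RA minus HMBA and -1.29 for DMSO minus HMBA. Igfbp3 differed by 1.16 for RA minus HMBA and 1.10 for DMSO minus HMBA.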

How the results depend on the processing

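Counts here are of called member probes. With the replicate block the RNAi counts were 16, 8 and 14 for Pou5f1 RNAi, Nanog RNAi and their difference, beside 15, 8 and 14 without it, and the added call was Igfbp5 1422313_a_at with Pou5f1 RNAi (-0.38, adjusted p = 0.03). Over all probe sets this block called 35.6%, 18.3% and 31.7%, beside 31.6%, 15.6% and 29.5% without it. The 13 RNAi probe sets that passed a filter on low values gave 12, 8 and 12 calls. Over all probe sets that passed, which are those at or above the median mean level, 12464, 6845 and 11650 were called. As the filter removes the dimmer probe sets, the share called among those that passed is above the 31.6%, 15.6% and 29.5% of all. The calls among the 13 are thus not read as an excess. On the ratio arrays the block, which is the dye orientation, moved the counts to 7 for DMSO, 7 for HMBA, 3 for RA minus DMSO and 4 for RA minus HMBA. For day 6 minus day 2 it gave 3 for RA, 5 for DMSO and 3 for HMBA, and by day 5 for RA on days 2 and 4, 1 and 5 for DMSO on those days, and 2, 7 and 5 for HMBA on days 2, 4 and 6. The block raised calls over all probes as well, from 4182 to 8204 for RA, and the shares of all probes it called are given above. With arrays scaled to one spread the counts were 0 for RA minus HMBA, 1 for DMSO minus HMBA, 0 for RA day 6 minus day 2 and 1 for DMSO day 4, and over all probes RA day 6 minus day 2 went from 182 to 58, RA day 6 from 2408 to 1409 and DMSO day 4 from 1120 to 655. DMSO day 4 minus day 2 also fell, from 46 to 10, while DMSO day 2 went from 328 to 581 and HMBA day 2 from 830 to 1368. With only complete probes, of which 5 are members, the counts were 0 for RA minus DMSO, 1 for RA minus HMBA, 1 for DMSO minus HMBA, and 0, 1 and 0 for day 6 minus day 2 with RA, DMSO and HMBA; Igfbp4 is not among those 5.

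Leaving out 1 array at a time gave 14 to 16 calls with Pou5f1 RNAi, 7 to 8 with Nanog RNAi and 14 to 14 between them. It gave 5 to 5 for RA, 3 to 4 for DMSO, 2 to 4 for HMBA, 0 to 1 for RA minus DMSO, 2 to 2 for RA minus HMBA and 0 to 2 for DMSO minus HMBA. Without DMSO day 4 replicate 1, Igfbp4 has no value in that group and could not be tested. Day 6 minus day 2 gave 0 to 1 for RA, 0 to 3 for DMSO and 1 to 1 for HMBA. By day the ranges on days 2, 4 and 6 were 2 to 3, 2 to 3 and 3 to 4 for RA, 0 to 0, 1 to 2 and 2 to 4 for DMSO, and 0 to 1, 2 to 4 and 2 to 3 for HMBA. Of the 280 member differences and their 5798 values under alternatives, 190 had the opposite sign, 0 of them for a called difference. Among values printed above, scaling turned RA minus DMSO to -0.12 for Igfbp3 and -0.01 for Igf1r 1102774. Leaving out arrays took Igfbp5 1422313_a_at with Nanog RNAi from -0.16 to 0.03, Igf1r 1114336 with RA from -0.17 to 0.41, Igfbp3 with HMBA from -0.06 to 0.21, and RA minus DMSO from -0.08 to 0.19 for Igfbp3 and from -0.04 to 0.11 for Igf1r 1102774. The cause of these moves was not tested. Dim probe sets, such as those of Igf1, limit what can be seen.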
